A study of Mus musculus with 30 samples.

Results

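The sclera of 2-week-old mice was compared with that of 1-week-old mice, an interval in which the eyelids of the mouse open. The series holds 30 arrays, and 12 of them are titled as week 2 or week 1 sclera, 6 per age. One of these, week 2 replicate 4, equalled the mean of the other 5 week 2 arrays to within 8e-05 on the log2 scale at all 35556 transcript clusters. It is therefore no separate measurement and was left out, so 5 arrays of week 2 were set against 6 of week 1. Each array held the RNA of the single sclera of 1 Balb/cJ mouse, an albino inbred strain, and the animals belonged to the same family. No treatment was given and no allele was altered in either group. Of the transcript clusters on the array, a Mouse Gene ST chip with probes along each transcript, 21789 carried exactly 1 gene symbol. They stand for 19938 genes, each followed through its brightest transcript cluster. Values are the authors' log2 signals, on which a difference of 1 is a 2-fold change. A gene was called higher or lower when it differed 2-fold or more and its adjusted p from limma was no higher than 0.05. By this rule 701 genes (3.52%) were higher and 1427 (7.16%) lower in week 2, and beyond 619 genes on lists of retina, pigment epithelium, lens, striated muscle and keratins, 667 of 19319 (3.45%) were higher and 1143 (5.92%) lower. With all 30 arrays, replicate 4 included, 702 were higher and 1427 lower, and the SEs were 0.934 times those given here in the median gene. The account below concerns these other genes.

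The sclera is the collagenous outer coat of the eye, laid down by fibroblasts, and its front edge borders the cornea and the conjunctiva. Before eyelid opening the ocular surface is a thin, sheltered epithelium. Around opening it stratifies and acquires mucins, water channels, antimicrobial proteins and enzymes against oxidants, while the young eye grows and its matrix matures. Imprinted genes, expressed from a single parental allele, are active in growing fetal and newborn tissues and are switched down as growth slows.

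Other tissues of the eye moved strongly between these ages, and their values stand beside every result that follows. Of 91 photoreceptor genes, 65 were lower in week 2, and the mean of the list per array was 6.63 to 8.70 in week 1 and 5.54 to 6.43 in week 2. Of 30 genes of pigment epithelium and melanocytes, 25 were lower, with array means of 7.93 to 9.22 and 5.72 to 6.99. Of 197 striated muscle genes, 98 were lower and 2 higher, with array means of 6.89 to 8.45 and 6.21 to 6.91, which met at their ends. Of 80 keratin, desmosome and cornified layer genes, 30 were higher and 1 lower, with array means of 6.00 to 6.79 and 7.11 to 7.47. Of 8 fibroblast markers 5 were called lower (Col1a2, Lum, Dcn, Kera and Ogn) and 0 higher. The type I collagen gene Col1a1 stayed among the brightest genes, at 12.79 to 13.35 in week 1 and 11.72 to 12.85 in week 2, whereas the proteoglycan Ogn went from percentile 88.6 to 55.2 of all genes by mean signal and Lum from percentile 97.5 to 69.0. When the photoreceptor, muscle and keratin array means were added to the fit, 59 of the 667 higher genes and 154 of the 1143 lower genes were still called, and SEs were 2.24 times as large in the median gene. The means of the pigment epithelium, lens and retinal neuron lists were not added. In that fit 6 of 30 genes of pigment epithelium and melanocytes were still called lower and 0 higher, with a median log2 fold change of -1.52. Fewer cells of a type and less RNA per cell cannot be told apart in these bulk samples.

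The spread of signals and the sex-linked genes also differed between the arrays. The interquartile range of an array was 2.60 to 2.79 in week 1 and 2.22 to 2.56 in week 2, so the ages did not overlap. Dim genes were shifted upward and bright genes downward as a whole, with a median log2 fold change of 0.33 in the dimmest of 10 equal bins of signal and -0.27 in the brightest. Olfactory receptors, which belong to the nose, are dim here and had a median of 0.44 over 1027 genes. Of these, 30 were called higher (2.92%, beside 3.52% of all genes) and 0 lower. Xist, the RNA that silences an X chromosome in females, was at 4.71 to 5.59 on week 1 replicates 1, 2 and 5 and at 10.98 to 11.34 on the other 3. In week 2 it was at 12.62 to 12.70 on replicates 1, 2 and 3 and at 6.96 and 7.07 on replicates 5 and 6. The Y-linked gene Eif2s3y ran the opposite way, at 7.78 to 8.04 on week 1 replicates 1, 2 and 5 and at 2.61 to 2.70 on the other 3. In week 2 it was at 0.81 to 1.11 on replicates 1 to 3 and at the middling levels of 4.83 and 5.42 on replicates 5 and 6. The labels do not state the sex of any mouse. Eif2s3y (log2 fold change -2.66, adjusted p = 0.0247) and Uty (-2.16, adjusted p = 0.0284) were called lower, and Xist was not called (2.33, adjusted p = 0.114). The calls of Eif2s3y and Uty were lost without week 1 replicate 1, 2 or 5 or week 2 replicate 1, 2 or 3 (-2.29 to -2.11 and -1.86 to -1.64), and Xist was called without week 1 replicate 6 (2.99) or week 2 replicate 5 (3.19) or 6 (3.17). With week 2 replicates 5 and 6 left out, 640 of the 701 higher and 1408 of the 1427 lower genes were still called.

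**Figure D1:**
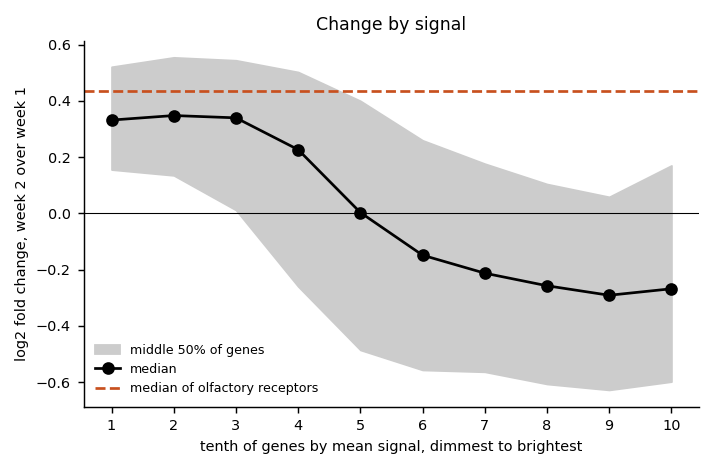
Median log2 fold change of week 2 over week 1 (vertical axis) in 10 equal bins of the 19938 genes ordered by mean signal (horizontal axis), with the interquartile range shaded and the median of 1027 olfactory receptors dashed. The median fell from 0.33 in the dimmest bin to -0.27 in the brightest.

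A run of microRNA (miRNA) genes in the imprinted Dlk1-Dio3 region of chromosome 12 was lower in week 2. miRNAs are short RNAs that recognise messages through their seed, bases 2 to 8 of the mature strand. The mature sequences from RefSeq (GRCm38.p6, plus strand of chromosome 12) are printed for the 5 miRNA genes of the region with the largest falls, since these are the products of the transcripts that moved, with the seed in capitals. Of 28 miRNA genes called, 27 had a mature sequence in the table.
mmu-miR-382-5p (chr12:109733781-109733802): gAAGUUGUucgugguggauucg
mmu-miR-382-3p (chr12:109733819-109733840): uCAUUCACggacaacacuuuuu
mmu-miR-487b-5p (chr12:109727347-109727367): uGGUUAUCccuguccucuucg
mmu-miR-377-5p (chr12:109740515-109740536): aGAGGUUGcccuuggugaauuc
mmu-miR-377-3p (chr12:109740553-109740574): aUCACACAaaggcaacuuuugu
mmu-miR-380-5p (chr12:109711806-109711827): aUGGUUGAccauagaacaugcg
mmu-miR-380-3p (chr12:109711842-109711863): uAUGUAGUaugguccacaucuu
mmu-miR-495-5p (chr12:109718757-109718779): gAAGUUGCccauguuauuuuucg
mmu-miR-495-3p (chr12:109718795-109718816): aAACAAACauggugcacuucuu
The 9 seeds all differed from each other, although those of miR-382-5p and miR-495-5p share their first 6 bases. The array probes lie on the hairpin or its host transcript, so the values below are of those and not of the mature strands.

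Of 40 miRNA genes measured between Dlk1 and Dio3, 14 were lower and 0 higher, against 22 lower (7.43%) and 6 higher (2.03%) of all 296 miRNA genes. The region was singled out after its values had been seen, so these counts are a description. Its miRNA genes had a median log2 fold change of -0.46, whereas the other 256 miRNA genes had a median of 0.26. The 14 lay among the 27 miRNA genes from Mir379 to Mir541, and 0 of the 10 upstream of Mir379 were called.

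Mir382 had a log2 signal of 5.77, 6.56 and 7.15 (lowest, median and highest of 6 arrays) in week 1 and, on the 5 arrays of week 2 in the order of their numbers, 4.28, 4.11, 4.37, 5.04 and 4.53, a log2 fold change of -2.15 (SE 0.18, adjusted p = 1.21e-09). Mir487b stood at 6.47, 7.22 and 7.62 and then at 5.06, 5.22, 5.19, 5.74 and 5.07 (-1.90, SE 0.15, adjusted p = 4.74e-10). Mir377 went from 5.21, 5.73 and 6.09 to 3.29, 3.84, 4.04, 4.41 and 3.56 (-1.89, SE 0.17, adjusted p = 2.55e-09). The arrays of the 2 ages did not overlap for any of these 3 genes, nor for 10 of the 14 called, beside 17.7% of all genes that lay lower in week 2 without overlap. Mir380 (-1.88) and Mir495 (-1.72) fell as well.

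The long RNAs of the same strand fell with them. Meg3, an imprinted RNA expressed from the maternal allele, stood at 10.38, 11.14 and 11.29 in week 1 and at 7.91, 8.72, 8.82, 9.85 and 8.49 in week 2, without overlap (-2.29, SE 0.29, adjusted p = 2.99e-07). Rian, the next long RNA downstream, fell by 1.59 on the log2 scale (SE 0.15, adjusted p = 4.40e-09). The protein-coding genes at the ends were not called, with Dlk1, a Notch-related membrane protein, at -0.29 (adjusted p = 0.18) and Dio3, which inactivates thyroid hormone, at 0.71. With the spread of the arrays as a covariate 11 miRNA genes of the region were called lower, and without week 2 replicates 5 and 6 the number was 13. With the photoreceptor, muscle and keratin means as covariates 2 of the 14 were called (Mir382 and Mir495), and the value of Meg3 was then 0.050.

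**Figure D2:**
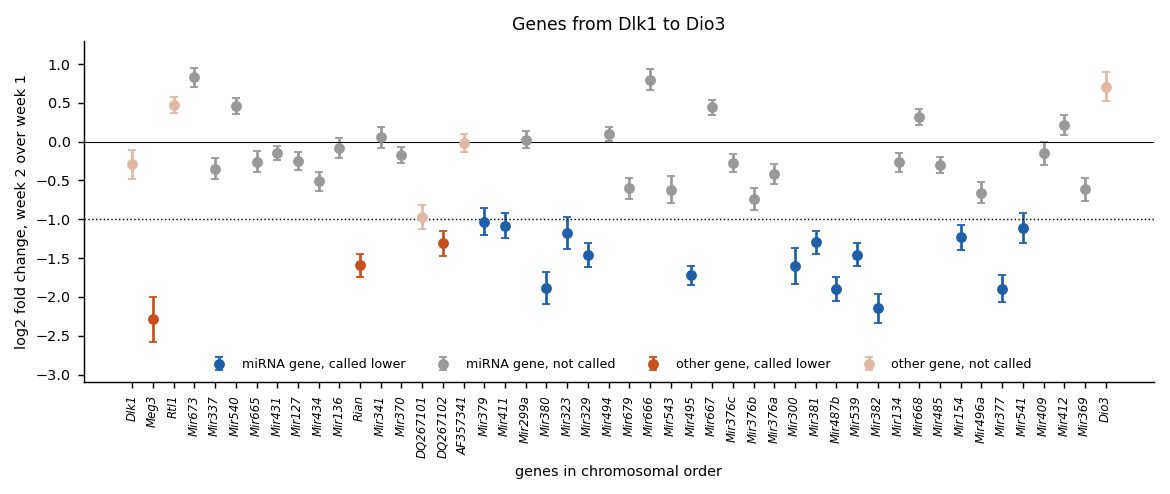
Log2 fold change of week 2 over week 1 with its SE (vertical axis) for 48 genes in chromosomal order from Dlk1 to Dio3 (horizontal axis), coloured by kind of gene and call, with a dotted line at -1. The 14 miRNA genes called lower lie between Mir379 and Mir541, and 0 miRNA genes were called higher.

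Outside this region 8 of 256 miRNA genes were lower and 6 higher, beside 7.16% lower and 3.52% higher of all genes. Those lower were Mirlet7c-1, Mirlet7f-1, Mir181b-1, Mir99a, Mir218-1, Mir1a-1, Mir204 and Mir568, at log2 fold changes of -1.57 to -1.13. Those higher were Mir187, Mir184, Mir24-2, Mir212, Mir205 and Mir219a-1, at 1.01 to 1.26. With the spread of the arrays as a covariate 0 of these 256 miRNA genes were called higher and 6 lower, and their median went from 0.26 to -0.0095. Their names, and those of the chromosome 12 genes after the 3 described above, were chosen after the values were seen. Of these, 2 picked as examples are known from surface epithelia, Mir184 from cornea and lens and Mir205 from stratified epithelium. The other miRNA genes called were not sorted by tissue. The mature sequences of Mir184 and Mir205 (GRCm38.p6, minus strand, seed in capitals) show no seed in common with those above.
mmu-miR-184-3p (chr9:89802263-89802284): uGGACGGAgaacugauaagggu
mmu-miR-205-5p (chr1:193507503-193507524): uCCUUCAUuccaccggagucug
Mir184 stood at 4.69, 4.90 and 5.27 in week 1 and 6.56, 6.53, 6.06, 5.30 and 6.34 in week 2 (log2 fold change 1.19, SE 0.20, adjusted p = 1.04e-05), without overlap. Mir205 overlapped, at 3.76, 4.57 and 5.37 and at 6.39, 6.28, 5.09, 4.62 and 5.67 (1.03, SE 0.31, adjusted p = 0.00458), and its call was lost without week 1 replicate 3 (0.87) or 4 (0.98) and without week 2 replicate 1 (0.83) or 2 (0.86).

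Most of the imprinted and fetal growth genes fell. Of 30 measured, 17 were lower and 0 higher, with a median log2 fold change of -1.13 beside 0.06 for all genes outside the tissue lists. The mean of the list per array was 7.64 to 8.05 in week 1 and 6.67 to 7.40 in week 2, without overlap. Mest, an imprinted enzyme of the alpha/beta hydrolase fold that marks fetal mesenchyme, stood at 9.92, 10.07 and 10.63 and then at 6.49, 6.43, 7.77, 8.60 and 7.59 (-2.78, SE 0.30, adjusted p = 3.36e-08). Nnat, an imprinted membrane protein of nerve and fat cells, fell by 2.19 on the log2 scale (SE 0.29, adjusted p = 4.83e-07). Igf2, the fetal insulin-like growth factor, stood at 9.57, 10.36 and 11.09 and at 8.17, 8.05, 8.96, 9.96 and 8.62 (-1.56, SE 0.27, adjusted p = 2.09e-05). For Mest and Nnat the ages did not overlap, while for Igf2 the highest week 2 array passed the lowest of week 1. With the tissue means as covariates 3 genes of the list were called lower, and its median was -0.38. Mest (-1.39, adjusted p = 0.169), Nnat (-0.45, adjusted p = 0.463) and Igf2 (-0.10, adjusted p = 0.901) were not called in that fit.

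The 12 outside the tissue lists with the largest rises and no overlap, beside 20.9% of all genes that lay higher without overlap, were Psca, Lypd2, Aqp5, Tmprss11a, Mal2, Nccrp1, Ces1d, Asprv1, Slc34a2, Plet1, Cyp4a12a and AI661453, with log2 fold changes of 4.37 to 2.77. On the list of epithelial transcription factors and junction proteins, 33 of 53 were higher and 2 lower, with a median of 1.19. Its array means were 6.46 to 7.28 in week 1 and 7.75 to 8.30 in week 2. Leaving out 1 array at a time gave 30 to 37 higher. With the tissue means as covariates 0 were called higher, and this also held for the Ly6, Tmprss, Serpinb and carboxylesterase families, the mucins and the oxidant enzymes described next.

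**Figure D3:**
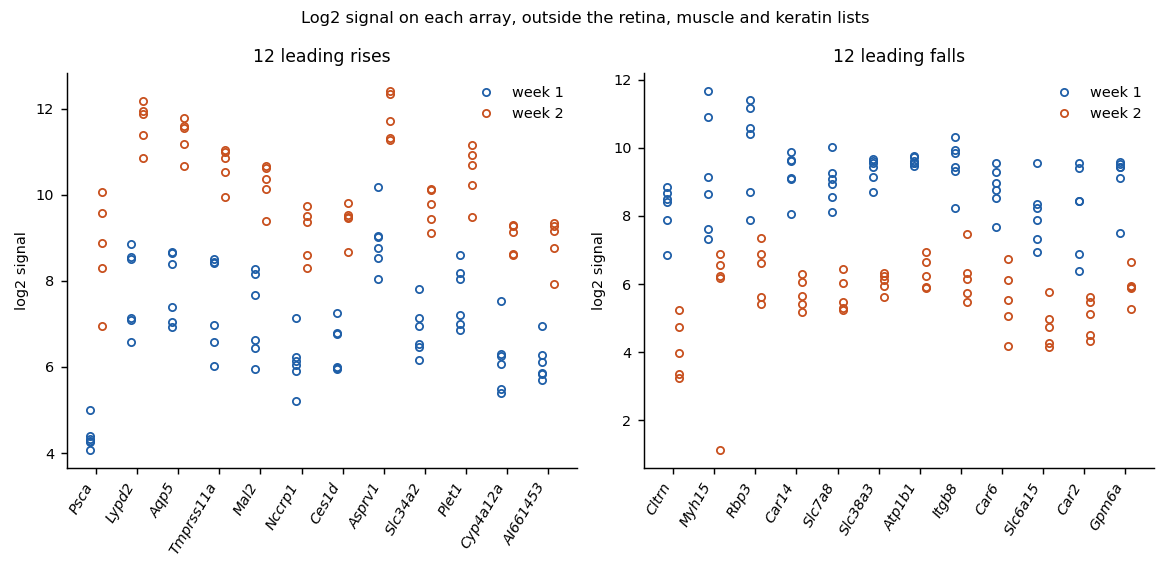
Log2 signal (vertical axis) on each of the 6 arrays of week 1 and 5 of week 2 for the 12 leading rises and the 12 leading falls outside the tissue lists (horizontal axis). Open circles are single arrays. In each of the 24 genes the arrays of one age lay wholly above those of the other, which the choice of these genes required.

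Families of related proteins rose in part. Ly6 and Lypd proteins, small GPI-anchored surface proteins, had 8 of 30 genes higher and 0 lower. Psca led them, from 4.08, 4.30 and 5.01 in week 1 to 10.07, 8.88, 8.30, 6.95 and 9.58 in week 2 (4.37, SE 0.56, adjusted p = 3.25e-07), Lypd2 rose by 3.85 (SE 0.62) and Ly6g6c rose by 2.56 (SE 0.43, adjusted p = 1.14e-05). Tmprss genes, serine proteases held in the membrane of epithelial cells, had 8 of 17 higher and 0 lower, the highest share of the families. Tmprss11a stood at 6.02, 7.69 and 8.51 and at 11.04, 11, 9.96, 10.52 and 10.86 (3.19, SE 0.61, adjusted p = 6.30e-05). Tmprss11d (2.41, SE 0.52) and Tmprss11g (2.39, SE 0.42) rose with it. Of the Serpinb genes, intracellular protease inhibitors that lie in gene clusters, 6 of 24 were higher and 0 lower. Serpinb5, or maspin, went from 5.48, 6.60 and 7.95 to 9.54, 9.41, 8.48, 9.38 and 9.68 (2.74, SE 0.51, adjusted p = 4.42e-05), and Serpinb11 rose by 2.47 (SE 0.45). Week 2 replicate 3 was the lowest array of its age for each of these Tmprss and Serpinb genes, while for Psca it was replicate 5.

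Junction proteins and the factors that drive epithelial differentiation rose as well. Mal2, a protein of apical transport, went from 5.94, 7.16 and 8.27 to 10.62, 10.36, 9.39, 10.14 and 10.67 (3.05, SE 0.52, adjusted p = 1.72e-05). The tight junction claudin Cldn7 stood at 5.83, 6.44 and 7.32 and at 9.38, 9.32, 8.46, 9.02 and 9.65 (2.72, SE 0.32, adjusted p = 1.13e-07). Cldn4, another claudin, rose by 2.11 (SE 0.32), and the ETS factor Elf3 rose by 2.58 (SE 0.35). Neither gene overlapped between the ages. The differentiation factors Zfp750 (2.43, SE 0.29), Klf4 (1.89, SE 0.26) and Grhl3 (1.95, SE 0.26) rose, each with an adjusted p of 7.78e-07 or below. The junction proteins that were lower were the gap junction gene Gja1 (-1.19, adjusted p = 8.66e-05) and the claudin Cldn1 (-1.01, adjusted p = 0.000133). The call of Gja1 was lost without week 1 replicate 1 (-0.98), and that of Cldn1 without week 1 replicate 4 (-0.90) or 5 (-0.91) or week 2 replicate 1 (-0.92), 2 (-0.88) or 3 (-0.96).

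Mucins and secretion genes had 12 of 48 higher and 2 lower. Aqp5, the water channel of secretory epithelium and cornea, stood at 6.92, 7.89 and 8.67 and at 11.78, 11.59, 10.67, 11.17 and 11.55 (3.51, SE 0.45, adjusted p = 2.86e-07). Muc4, a mucin held on the surface of the conjunctiva and cornea, went from 7.33, 8.22 and 9.54 to 11.10, 10.66, 10.38, 10.29 and 11.31 (2.56, SE 0.32, adjusted p = 2.70e-07). Both were without overlap. Mucosal defence had 9 of 62 genes higher (14.5%) and 3 lower (4.84%), beside 3.45% and 5.92% of all genes outside the tissue lists. Pglyrp1, which binds bacterial peptidoglycan, rose by 2.38 (SE 0.28, adjusted p = 1.14e-07), from 7.31 to 9.37 over the week 1 arrays to 9.78 to 11.45. The epithelial S100 protein S100a14 (2.34, SE 0.38) and the beta-defensin Defb1 (1.88, SE 0.31) rose. Lysozyme of macrophages, Lyz2, went the other way, at -1.61 (SE 0.28, adjusted p = 2.18e-05).

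Enzymes of oxidant and xenobiotic defence had 21 of 85 genes higher and 6 lower, with a median of 0.38. Carboxylesterases, which cleave lipid and drug esters, had 5 of 16 higher and 0 lower. Ces1d went from 5.95, 6.39 and 7.26 to 9.53, 9.80, 8.67, 9.49 and 9.46 (2.93, SE 0.41, adjusted p = 1.27e-06). Ces2f (2.34, SE 0.28) and Ces2g (2.23, SE 0.35) rose with it. These genes and the cytochrome Cyp4a12a, a fatty acid hydroxylase that rose by 2.81 (SE 0.39), have close relatives whose RNA may share probes with theirs, so single members are uncertain. Aldh3a1, the aldehyde dehydrogenase abundant in corneal epithelium, stood at 8.55, 10.83 and 11.84 and at 13.08, 13.07, 12.38, 12.95 and 12.92 (2.32, SE 0.53, adjusted p = 0.000413). The epoxide hydrolase Ephx3 rose by 2.49 (SE 0.27) and Gsta4, a glutathione transferase for products of lipid peroxidation, by 1.69 (SE 0.21). None of these overlapped between the ages. Transport genes among the rises were the phosphate carrier Slc34a2 (2.87, SE 0.40), the monocarboxylate carrier Slc5a8 (2.62, SE 0.30) and the nucleoside carrier Slc28a3 (2.56, SE 0.33). The remaining leading rises were Plet1 (2.84, SE 0.33), a surface protein of epithelial progenitors, Asprv1 (2.88, SE 0.33), the aspartic protease of cornifying epidermis, Nccrp1 (2.99, SE 0.30), found in squamous epithelium, and AI661453 (2.77, SE 0.32).

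**Figure D4:**
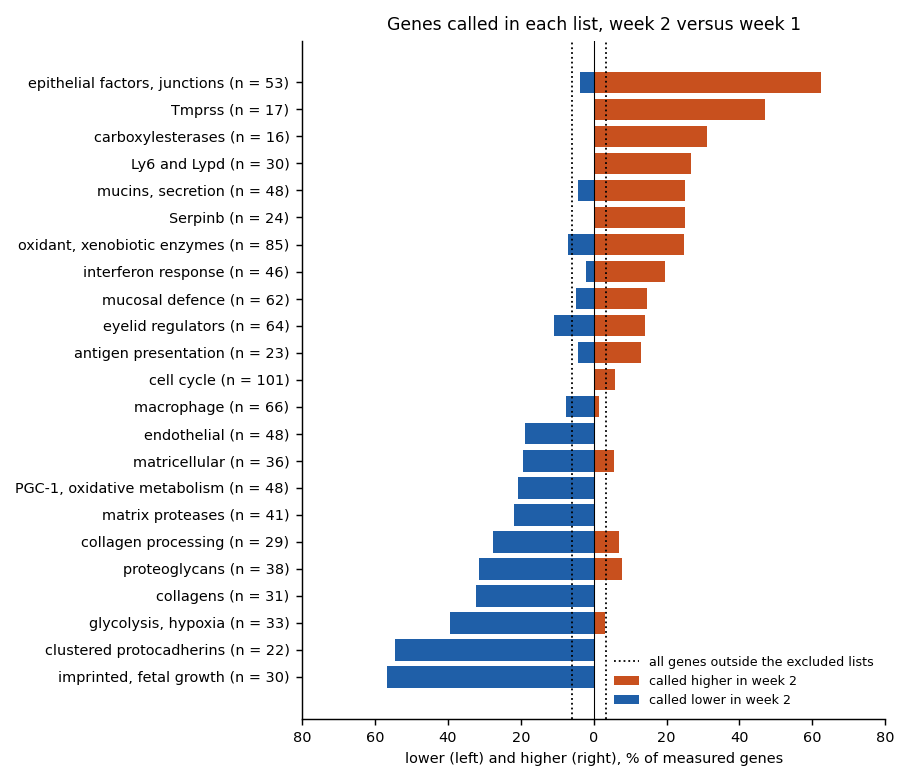
Share of the measured genes of each list or family called higher (right) or lower (left) in week 2, in percent, with the shares over all genes outside the tissue lists dotted at 3.45 and 5.92. Epithelial factors reached 62.3% higher, and imprinted genes 56.7% lower.

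The promoters of the genes called were searched for the letters of 4 motifs. The letters GGGTGTG, which KLF factors can bind, stood on either strand of the 250 bases upstream of the start in 69 of 488 promoters of genes called higher, 16 of the 84 that rose at least 4-fold, 58 of 869 called lower (6.67%) and 1148 of all 15614 (7.35%). The AP-1 letters TGANTCA stood in 49 of the 488, 29 of the 869 (3.34%) and 954 of all (6.11%). The ETS letters AGGAAGT were in 7.99% of promoters of higher genes and 7.33% of all, and AAGGTCA, bound by ERR factors, in 3.28% and 3.36%. Each motif was counted on its own, and matches of different motifs may overlap. These shares are a description, they were not tested, and a match is not a site. Upstream stretches (RefSeq, GRCm38.p6, 5′ to 3′ toward the start site) of 4 genes described above are printed to show the letters in place, with matches to the motif named in capitals.
Serpinb5, KLF letters (chr1:106860925-106861174, plus strand): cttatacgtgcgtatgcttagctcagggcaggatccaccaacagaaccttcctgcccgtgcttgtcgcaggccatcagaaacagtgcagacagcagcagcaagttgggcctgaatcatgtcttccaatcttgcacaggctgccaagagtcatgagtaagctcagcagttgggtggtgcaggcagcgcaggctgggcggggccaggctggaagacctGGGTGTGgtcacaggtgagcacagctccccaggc
Slc5a8, KLF letters (chr10:88885742-88885991, plus strand): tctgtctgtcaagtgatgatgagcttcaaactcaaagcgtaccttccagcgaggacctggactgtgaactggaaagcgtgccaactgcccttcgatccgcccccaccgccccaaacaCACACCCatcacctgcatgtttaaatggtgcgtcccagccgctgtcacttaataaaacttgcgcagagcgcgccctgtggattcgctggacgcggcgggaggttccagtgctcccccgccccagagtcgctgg
Plet1, AP-1 letters (chr9:50494275-50494524, plus strand): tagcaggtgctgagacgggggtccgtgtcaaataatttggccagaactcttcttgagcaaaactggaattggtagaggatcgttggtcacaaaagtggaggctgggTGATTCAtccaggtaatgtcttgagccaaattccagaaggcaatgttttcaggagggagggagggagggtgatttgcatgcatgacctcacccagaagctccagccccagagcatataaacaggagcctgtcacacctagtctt
Cldn4, AP-1 letters (chr5:134946935-134947184, minus strand): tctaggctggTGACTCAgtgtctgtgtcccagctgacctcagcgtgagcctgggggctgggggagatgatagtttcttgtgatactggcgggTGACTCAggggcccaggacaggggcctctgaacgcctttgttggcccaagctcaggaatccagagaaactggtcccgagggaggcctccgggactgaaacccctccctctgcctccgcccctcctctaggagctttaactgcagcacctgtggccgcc
The Serpinb5 match lay at position -34 from the start site, that of Slc5a8 at -133, that of Plet1 at -144, and Cldn4 held 2 matches, at -240 and -158. The Serpinb5 stretch also held the AP-1 letters, not in capitals.

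Regulators of eyelid growth and closure had 9 of 64 genes higher, 7 lower and a median of 0.09. Among those higher were the planar polarity cadherin Celsr1 (1.56, SE 0.21, adjusted p = 6.15e-07) and the ErbB ligand Nrg1 (1.45, SE 0.16, adjusted p = 4.77e-08), beside Grhl3 described above. Those lower included growth factors of the TGF-beta family. Bmp2 stood at 6.32, 6.89 and 7.64 and at 5.20, 4.95, 5.38, 5.40 and 4.89 (-1.83, SE 0.25, adjusted p = 7.72e-07), and Bmp4 (-1.56, SE 0.21) and Tgfb2 (-1.34, SE 0.18) fell with it, all without overlap. The study reports that its qPCR change of Tgfb2 between these ages was too low to bear out the array result. The EGF receptor Egfr rose by 1.03 (SE 0.15, adjusted p = 1.82e-06), and its call was lost without week 1 replicate 3 (0.96) or 6 (0.97) or week 2 replicate 6 (0.96). From the families of guidance proteins, Epha1, an ephrin receptor of epithelia, rose by 2.12 (SE 0.32), while Sema3c, a secreted guidance protein, fell by 2.33 on the log2 scale (SE 0.34, adjusted p = 1.83e-06). With the tissue means as covariates 0 genes of the eyelid list were called higher and 3 lower. None of the genes named in this paragraph was called in that fit, among them Celsr1 (0.085), Nrg1 (0.56), Bmp2 (-1.43) and Tgfb2 (-1.25).

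A part of the genes of the extracellular matrix was lower in week 2. Of 31 collagen genes, 10 were lower and 0 higher, with a median of -0.65, and of 38 proteoglycan genes 12 were lower and 3 higher. Matrix proteases had 9 of 41 lower and 0 higher, collagen processing 8 of 29 lower and 2 higher, elastic fibre genes 4 of 20 lower and 1 higher, and matricellular proteins 7 of 36 lower and 2 higher. The background for genes lower was 5.92%. The array means of the collagens were 8.16 to 8.53 in week 1 and 7.61 to 8.16 in week 2. With the array spread as a covariate 2 collagens, 2 proteoglycans, 4 collagen processing genes, 3 proteases and 2 matricellular genes were called lower. The collagen median was then -0.52, and SEs were 1.32 times as large in the median gene outside the tissue lists. The spread did not overlap between the ages, so this covariate and age cannot be told apart. With the tissue means as covariates 0 collagens and 0 proteoglycans were called lower. Of 22 genes that the study chose on these samples and that lie outside the tissue lists, 16 were lower and 1 higher, which is not independent evidence of a direction. Of the matrix genes named in the next paragraphs, Col12a1, Col3a1, Col1a2, Ogn, Optc, Nid1, Postn, Adamts5, Mmp2 and Ctsk were not called with the spread of the arrays as a covariate (-1.74 to -0.78). With the tissue means as covariates 0 collagen processing genes, 0 elastic fibre genes, 2 proteases and 2 matricellular genes were called lower. Of the matrix genes named in the next paragraphs only Hapln1 and Spon1 were called in that fit.

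Among collagens, Col8a1, a short-chain collagen of vessels and cornea, went from 9.09, 9.80 and 10.21 to 7.14, 7.27, 7.79, 8.70 and 7.51 (-2.07, SE 0.29, adjusted p = 1.03e-06). Col12a1, which lies along fibrils, overlapped between the ages (-1.75, SE 0.34), and Col3a1, a fibrillar collagen, did not (-1.44, SE 0.27, adjusted p = 6.26e-05). The main fibrillar gene Col1a2 stood at 12.26, 12.62 and 12.98 and at 10.86, 11.05, 12, 12.16 and 11.31 (-1.12, SE 0.24, adjusted p = 0.000257), and without week 2 replicate 1 its value was -0.97 and it was not called. Lumican (Lum), a small proteoglycan that spaces collagen fibrils, fell further, from 8.83, 9.72 and 10.07 to 6.11, 6.58, 7.66, 8.08 and 7.41 (-2.41, SE 0.32, adjusted p = 6.03e-07). Osteoglycin (Ogn), of the same class, stood at 8.03, 8.45 and 8.74 and at 6.13, 5.19, 7.65, 7.60 and 6.65 (-1.76, SE 0.36, adjusted p = 0.000151). Opticin (Optc), made by the ciliary epithelium, overlapped (-2.18, SE 0.48). Hapln1, which links hyaluronan to proteoglycans, went the other way, from 4.37, 4.76 and 4.98 to 6.40, 5.63, 6.22, 5.71 and 6.04 (1.3, SE 0.12, adjusted p = 5.49e-09) and was still called with the tissue means as covariates (1.56, adjusted p = 0.00897).

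Most of the called enzymes that modify or cut the matrix were lower. Plod2, which hydroxylates collagen lysines, stood at 7.36, 7.52 and 7.72 and at 5.60, 5.25, 5.78, 6.35 and 5.69 (-1.80, SE 0.18, adjusted p = 1.04e-08). Loxl1, which cross-links elastin, fell by 1.78 on the log2 scale (SE 0.27), whereas the transglutaminase Tgm2 rose by 1.5 (SE 0.23). The proteases Adamts5 (-1.59, SE 0.27), Mmp2 (-1.46, SE 0.28) and Ctsk (-1.39, SE 0.25) were lower, and of them Mmp2 overlapped. Of elastic fibre genes, the fetal fibrillin Fbn2 stood at 8.78, 9.12 and 9.46 and at 6.73, 6.62, 7.56, 7.91 and 6.82 (-2.0, SE 0.25, adjusted p = 1.82e-07), and the microfibril protein Mfap5 fell by 2.07 (SE 0.35). Spon1, a matrix protein of the spondin family, went from 8.13, 8.91 and 10.03 to 6.51, 5.98, 6.99, 6.57 and 5.79 (-2.54, SE 0.28, adjusted p = 3.83e-08) and was still called with the tissue means as covariates (-2.94, adjusted p = 0.0167). Periostin (Postn), a matrix protein of growing connective tissue, fell by 1.84 (SE 0.28), and Tgfbi, abundant in corneal epithelium, rose by 1.47 (SE 0.31). Of the basement membrane genes, the laminin chains of epithelium Lama3 (2.09, SE 0.25) and Lamb3 (1.41, SE 0.20) were higher, and the nidogens Nid2 (-1.85, SE 0.25) and Nid1 (-1.46, SE 0.26) lower. In all, 6 of 30 basement membrane genes were lower and 2 higher, and with the spread of the arrays as a covariate 1 was lower and 2 higher. With the tissue means as covariates 0 of the 30 were called either way.

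**Figure D5:**
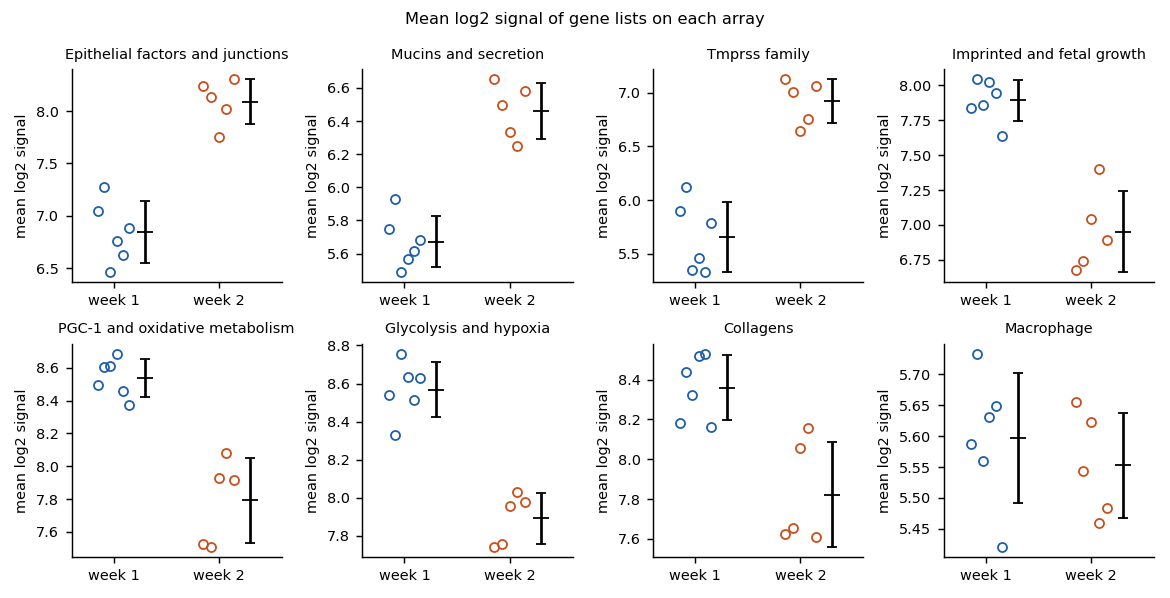
Mean log2 signal (vertical axis) of 8 gene lists on each array of week 1 and week 2 (horizontal axis), with open circles for single arrays and bars for the mean and SD of 6 and 5 arrays. Epithelial, mucin and Tmprss lists lay wholly higher in week 2 and imprinted, PGC-1 and glycolysis lists wholly lower, while macrophage means overlapped.

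Some genes of energy metabolism were lower. The list of PGC-1 coactivators and oxidative metabolism had 10 of 48 genes lower and 0 higher, with 44 of 48 below 0, a median of -0.76 and array means of 8.37 to 8.68 in week 1 and 7.51 to 8.08 in week 2. The count was 8 to 15 with single arrays left out, the highest without week 2 replicate 5, and 18 without week 2 replicates 5 and 6. With the spread of the arrays as a covariate it was 5, with a median of -0.38, and with the tissue means as covariates it was 2. Ppargc1a, the coactivator that drives mitochondrial biogenesis, stood at 7.42, 7.60 and 8.05 and at 4.73, 4.78, 5.61, 5.72 and 5.33 (-2.44, SE 0.19, adjusted p = 4.37e-10). The cytosolic malic enzyme Me1 (-1.83, SE 0.19) and the mitochondrial ADP/ATP carrier of muscle and heart Slc25a4 (-1.77, SE 0.17) fell with it. Each of the 3 was without overlap. The study reports that its qPCR on pooled scleras could not bear out the fall of Ppargc1a between these ages. Complex I of the respiratory chain had 4 of 43 genes lower (9.3%, beside 5.92% of all genes outside the tissue lists) and 0 higher, led by Ndufs1 (-1.39, SE 0.15, adjusted p = 2.41e-08). With the spread of the arrays or the tissue means as covariates 0 were called, and with quantile normalization 1 was. Mitochondrial ribosomal proteins had 0 of 77 called either way by limma, with 42 lower and 14 higher at an unadjusted p under 0.05. Of all 19938 genes, 6520 were lower and 7289 higher at a limma adjusted p no higher than 0.05 without a fold threshold. That threshold is stricter than the unadjusted p, so the counts are not like for like.

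Glycolysis and the hypoxia response had 13 of 33 genes lower and 1 higher, with a median of -0.74. Slc16a1, the lactate carrier, went from 7.93, 9.18 and 9.28 to 5.11, 5.46, 5.92, 6.71 and 6.37 (-3.02, SE 0.27, adjusted p = 2.76e-09). Hif1a, the oxygen-regulated transcription factor, stood at 9.09, 10.11 and 10.44 and at 7.57, 7.81, 8.12, 8.40 and 8.40 (-1.88, SE 0.19, adjusted p = 1.08e-08), and the phosphofructokinase Pfkp fell alike (-1.88, SE 0.21). Egln3, a prolyl hydroxylase that marks HIF proteins for breakdown, moved opposite, from 6.68, 7.15 and 8.24 to 10.10, 10.36, 9.13, 10.09 and 10.29 (2.67, SE 0.41, adjusted p = 3.83e-06). With the tissue means as covariates Ppargc1a (-1.57, adjusted p = 0.0264) and Hif1a (-1.96, adjusted p = 0.0142) were still called lower, and Slc16a1 (-1.37, adjusted p = 0.105) and Egln3 (-0.31, adjusted p = 0.732) were not called. Muscle genes, which use the same pathways, were lower in the same arrays, and their part in these values was not tested.

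The 12 largest falls outside the tissue lists without overlap were Cltrn, Myh15, Rbp3, Car14, Slc7a8, Slc38a3, Atp1b1, Itgb8, Car6, Slc6a15, Car2 and Gpm6a, at -4.07 to -3.17. Several are known from the tissues on the lists although no list held them, among them Myh15 as a myosin of extraocular muscle, Rbp3 as the retinoid carrier of the photoreceptor matrix, Gpm6a as a glycoprotein of neurons and Car2 and Car14 from retinal glia and pigment epithelium. Cltrn, or collectrin, which carries amino acid transporters to the membrane, went from 6.85, 8.45 and 8.85 to 3.37, 3.24, 4.75, 5.25 and 3.99 (-4.07, SE 0.38, adjusted p = 4.54e-09). Carbonic anhydrases, which interconvert carbon dioxide and bicarbonate, held 3 places among the 12. The membrane-bound Car14 stood at 8.05, 9.37 and 9.87 and at 5.17, 5.43, 6.06, 6.30 and 5.66 (-3.51, SE 0.27, adjusted p = 2.69e-10), with the secreted Car6 at -3.26 (SE 0.40) and the cytosolic Car2 at -3.17 (SE 0.43). Of the amino acid carriers, Slc7a8 stood at 8.13, 9.02 and 10.02 and at 5.24, 5.29, 6.43, 6.03 and 5.47 (-3.31, SE 0.27, adjusted p = 6.96e-10), the glutamine carrier Slc38a3 at -3.30 (SE 0.21) and the neutral amino acid carrier Slc6a15 at -3.26 (SE 0.36). Atp1b1, the beta subunit of the sodium pump, ranged from 9.46 to 9.76 in week 1 and from 5.88 to 6.94 in week 2 (-3.29, SE 0.19, adjusted p = 2.45e-12). Itgb8, an integrin that activates TGF-beta, was at -3.28 (SE 0.38). With the tissue means as covariates Slc6a15 (-3.92), Slc7a8 (-3.40), Car14 (-2.68), Atp1b1 (-2.42), Gpm6a (-1.96) and Slc38a3 (-1.58) were still called lower, and Car2 was not (-0.26, adjusted p = 0.59). Pigment epithelium and retinal glia, from which Car14 is known, were not among these covariates.

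Of 66 macrophage genes 5 were lower (7.58%, beside 5.92% of all genes outside the tissue lists) and 1 higher, with a median of 0.06, 34 above 0 and 32 below, and array means that overlapped. Among the 5 lower were the growth factor receptor Csf1r (-1.52, SE 0.16, adjusted p = 1.77e-08), the mannose receptor Mrc1 (-1.44, SE 0.20) and the complement protein C1qc (-1.32, SE 0.14), all without overlap. Itgam, the integrin of myeloid cells, was higher, from 6.05, 6.24 and 7.26 to 9.0, 8.36, 8.24, 7.95 and 9.40 (2.18, SE 0.31, adjusted p = 1.30e-06). Complement and coagulation had 7 of 41 lower (17.1%, beside 5.92% of all genes outside the tissue lists) and 1 higher. The lower genes were led by the protease trap A2m (-2.58, SE 0.23, adjusted p = 2.78e-09) and C2 (-1.57, SE 0.24). Both were still called with the tissue means as covariates. In that fit Csf1r (-0.75), Mrc1 (-1.07), C1qc (-0.90) and Itgam (0.59) were not called.

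Interferon response genes had 9 of 46 higher and 1 lower, with a median of 0.50. Ifitm1, a membrane protein that blocks virus entry, stood at 8.93, 9.83 and 10.85 and at 11.76, 11.32, 11.22, 11.58 and 12.13 (1.76, SE 0.26, adjusted p = 2.06e-06), and Ifi202b (1.91, SE 0.40) and Oasl1 (1.57, SE 0.25) rose with it. Antigen presentation had 3 of 23 higher (13%) and 1 lower (4.35%), beside 3.45% and 5.92% of all genes outside the tissue lists. The immunoproteasome subunits Psmb8 (1.28, SE 0.17) and Psmb9 (1.06, SE 0.08, adjusted p = 4.27e-10) and the peptide pump Tap1 (1.11, SE 0.16) were higher, whereas B2m, the light chain of class I molecules, was lower (-1.08, SE 0.20, adjusted p = 4.83e-05). The call of B2m was lost without week 1 replicate 1 (-0.95) or week 2 replicate 1 (-0.97) or 2 (-0.91). With the tissue means as covariates 0 genes of either list were called higher.

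Further lists moved in part or little. Clustered protocadherins, adhesion proteins best known from neurons, had 12 of 22 lower and 0 higher, led by Pcdhb9 (-2.15, SE 0.21, adjusted p = 6.90e-09), and 5 were still called with the tissue means as covariates, although near-identical members may share probes. The endothelial and vessel list had 9 of 48 genes lower (18.8%, beside 5.92% of all genes outside the tissue lists) and 0 higher. Among those lower were the vessel ligands Angpt1 (-1.99, SE 0.33) and Vegfa (-1.49, SE 0.18). The number lower was 3 with the spread of the arrays as a covariate and 6 with quantile normalization. With the tissue means as covariates 2 were lower and 1 higher, with a median of 0.52. Angpt1 (-0.49) and Vegfa (-0.035) were not called in that fit. Cell cycle genes had 6 of 101 higher and 0 lower, a share of 5.94% beside 3.45% of all genes outside the tissue lists, and a median of 0.43. Ccnd1, a cyclin of early cycle entry, rose by 1.38 (SE 0.21, adjusted p = 4.68e-06), and the cell division genes Anln and Kif23 by 1.25 each (SE 0.31 and 0.30). The number higher was 18 with the spread of the arrays as a covariate and 3 without week 2 replicates 5 and 6, and with the tissue means as covariates 0 were higher and 1 lower, with a median of -0.55. Of 25 FGF genes limma called 0 either way, and 13 were higher and 4 lower at an unadjusted p under 0.05. Many genes passed limma without a fold threshold, with 7289 higher and 6520 lower of all 19938 at an adjusted p no higher than 0.05. This again is a stricter threshold than the unadjusted p of the FGF counts. Of 13 common reference genes 3 were lower (Pgk1, B2m and Tfrc, the first and last named after their values were seen) and 0 higher, with a median of -0.48, which was -0.07 with the spread of the arrays as a covariate. Actb (0.17, SE 0.08, adjusted p = 0.0805) and Hprt (-0.53, SE 0.15, adjusted p = 0.0023) were among those not called.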

How the data were processed

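RNA of single scleras was hybridised to Affymetrix Mouse Gene ST arrays, 6 titled for each of 5 ages. The deposited table holds log2 signals made by the authors. The methods name RMA and the labels GCRMA with Partek 6.5, so which was used is not settled, and the methods state that batch effects were removed with scan date as a factor. Scan dates are not given in the sources used here. Such a step uses up degrees of freedom that the fits below do not count, so p-values may be too small.

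A linear model with 1 mean per age was fitted to each of the 35556 transcript clusters (limma 3.58.1, R 4.3.3, functions lmFit, contrasts.fit and eBayes), and p-values were adjusted by Benjamini-Hochberg over all of them. The fit was planned on all 30 arrays. Week 2 replicate 4 was left out because it equals the mean of the other week 2 arrays, which leaves 29, and the fit on 30 is an alternative. In week 6, the deviations of replicates 4 and 6 from the mean of their age cancel within 5e-05, which enters the pooled spread only. A call needed a change of 2-fold or more with an adjusted p no higher than 0.05. Transcript clusters with exactly 1 symbol in the platform annotation were kept, and the brightest over the arrays stands for a gene.

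Named genes are the 12 largest rises and falls without overlap, and up to 3 called genes each way of each list or family. There were 32 theme lists, 6 lists of other tissues and 30 families by symbol. Members and lists were chosen with earlier results of these data known. On data simulated for this comparison, 200 of 35556 transcript clusters were changed by 1.5 on the log2 scale. Of these, 195 were recovered, and 2 false calls were made among the unchanged ones. The error rate of the calls on the real arrays was not tested. The number of arrays limits the precision.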

Additional observations from a re-analysis of the deposited data

Results flagged for a closer look

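In 22 of the 248 combinations of a named gene and an age, 1 array lay apart from the rest of its age by a gap to its nearest neighbour larger than Dixon's critical value allows. Chance flags about 1 in 20 groups. Week 2 replicate 3 was the lowest array in 10 of them. There it gave log2 signals of 7.58 for Tmprss11d, 8.48 for Serpinb5, 7.18 for Ces2f, 8.43 for Ces2g, 12.4 for Aldh3a1, 7.67 for Celsr1, 6.62 for Nrg1, 9.65 for Tgfbi, 9.13 for Egln3 and 6.97 for Kif23. Week 1 replicate 2 was the highest array for Psca (5.01), Ces2f (6.40), Epha1 (7.34), Lamb3 (7.24) and Psmb8 (6.32), and the lowest for Gpm6a (7.50). Week 1 replicate 1 was the lowest for Meg3 (10.4) and the highest for C2 (8.17). In week 2, replicate 6 was the highest for Slc5a8 (9.98) and the lowest for Myh15 (1.14), and replicate 5 was the highest for Mir487b (5.74) and Mir380 (4.35).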

How the results depend on the processing

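The counts of 701 genes higher and 1427 lower, 2128 in all, depended on the fold threshold and on what was added to the fit. With the photoreceptor, muscle and keratin array means as covariates 193 were higher and 328 lower (521 in all), of which 59 and 187 were also called without them. Without the fold threshold 7289 were higher and 6520 lower (13809), and with a 3-fold threshold 250 and 497 (747). With the spread of each array as a covariate 777 were higher and 869 lower, and with quantile normalization 828 and 1265, which brought the share higher among the calls from 32.9% to 47.2% and 39.6%. The alternatives with Xist and Eif2s3y as covariates (1151 higher and 1956 lower), without week 2 replicates 5 and 6 (896 and 1790) and with all 30 arrays (702 and 1427) were chosen after seeing the data. Leaving out 1 array at a time gave 622 to 802 higher, 1278 to 1610 lower and 1900 to 2412 in all. Replicate numbers did not pair the samples (correlations of -0.042 to 0.025 over 5 pairs, with 0 arrays closest to their own number), and the fit with the replicate number as a block called 694 higher and 1422 lower, 2116 in all. With the tissue means as covariates the sign turned for Lypd2 (-0.39), Ly6g6c (-0.13), Tmprss11a (-0.95), Tmprss11d (-0.94), Tmprss11g (-0.54), Serpinb5 (-0.90), Serpinb11 (-0.29), Ces2g (-0.18), Aldh3a1 (-1.25), Mal2 (-0.84), S100a14 (-0.41), Defb1 (-0.13), Mir184 (-0.063), Mir205 (-1.28), Tgfbi (-0.45), Egln3 (-0.31), Ifi202b (-0.48), Anln (-0.54), Kif23 (-0.68), Actb (-0.28), Rbp3 (0.028), Meg3 (0.050) and Col1a2 (0.25). Uty turned to 0.16 with the sex-linked genes as covariates. With the spread of the arrays as a covariate 19 of the named genes lost their call. Outside the matrix genes listed above these were Gja1, Cldn1, Lyz2, Mir184, Mir205, Ndufs1, B2m, Eif2s3y and Uty. The causes were not tested.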
